A study of Mus musculus with 28 samples.

Results

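Hepatic glucose handling and insulin signalling were followed through 9 genes: the glucose transporter gene Slc2a2, the glycolytic gene Pklr, the glucose-releasing genes G6pc and Fbp1, the receptor gene Insr, its substrates Irs1 and Irs2, the transcription factor gene Foxo1 and the adaptor gene Appl1. The genes were found by their names in the probe annotation of a whole mouse genome array. Of the 9 genes, 8 had a probe, with 14 probes between them out of 41174 on the array, and Irs2 was not analysed here. Of the 8, Appl1 alone passed the test in any comparison of 2 diets: it was 1.75-fold lower on the high fat diet than on the standard diet on its brighter probe (adjusted p = 0.0351, limma). That call was lost with replicate number as a block (adjusted p = 0.0675, limma) and under 11 of 16 alternatives in all, and the second Appl1 probe differed by -0.15 on the log2 scale (adjusted p = 0.955, limma). Slc2a2 was 2.17-fold lower with added resveratrol than on the high fat diet alone and did not pass. The livers of these 2 groups did not overlap on the brighter Slc2a2 probe, as for 0.388% of all genes, and overlapped on the dimmer one.

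Livers came from 28 male C57/6J mice that started their diets aged 7 weeks, ate them for 26 weeks and so were aged 33 weeks at the end, with 1 array per liver and mouse. The high fat diet carried 0.4% quercetin, a plant flavonol, in 5 mice (HQ), 0.4% resveratrol, a plant stilbene, in 6 mice (HR), and 0.2% of each compound in 6 mice (HQR). The high fat diet without a compound was given to 6 mice (HFD) and a standard diet to 5 mice (SD). The design text gives 30 mice at the start and says that degraded RNA was left out. No mouse received a compound on the standard diet, and the labels do not say whether the mice were fasted before the livers were taken.

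Levels are given as the log2 of the background-subtracted fluorescence of a probe, relative to the 75th percentile of all probes of the same array, so that a difference of 1 is a 2-fold difference. Levels of different probes are not on a common scale and are not compared. A probe could be tested if the scanner software called it well above background on at least 5 arrays. Of 14 probes, 13 were well above background on 28 of 28 arrays. The exception was an Irs1-named probe on the opposite strand to the other Irs1 probes, which reached that mark on 0 arrays. The brightest probe stood for each gene, and 21851 genes were fitted together with limma. Genes passed at a Benjamini-Hochberg adjusted p under 0.05.

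The arrays lay on 9 slides scanned on 4 days, and each array had from 59.3% to 82.1% of its probes well above background. Of the variance along the first principal component, which was 42% of the total, slide accounted for a share of 0.739 and diet for 0.0363. Slide 8, with 1 HR, 1 HQR and 1 HFD liver, had the 3 highest percentages of probes above background. Within-slide values and results without slide 8 are therefore given for Slc2a2 in HR against HFD and for Appl1 in HFD against SD. Hepatocyte markers such as Alb and Hnf4a were well above background on 28 of 28 arrays. Of the 3 fat cell markers, Adipoq reached that mark on 25 of 28 arrays, Retn on 10 and Lep on 0. The pancreas markers Ins1 and Ins2 and the muscle marker Acta1 reached it on 28 of 28. The pancreas markers Cela1 and Gcg reached it on 20 and 8 arrays, and the muscle markers Myh4 and Ckm on 23 and 7.

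Insulin acts on hepatocytes through its receptor, which phosphorylates substrate proteins that activate PI3-kinase and AKT. AKT in turn keeps the transcription factor FOXO1 out of the nucleus, where it would otherwise raise transcription of gluconeogenic genes. Glucose enters and leaves the hepatocyte through GLUT2, the product of Slc2a2. After a meal, glucose is phosphorylated and passes through glycolysis to pyruvate. During fasting, the liver makes glucose through fructose bisphosphatase and releases it through glucose-6-phosphatase.

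Promoter windows of 250 bases before the annotated start were taken from RefSeq (build GRCm38.p6, plus strand unless stated), for 7 of the 9 genes in 8 windows. No window was listed for Insr or Appl1. The windows of Pklr at its downstream start, G6pc and Slc2a2 are shown because glucose and insulin are known to act on transcription of these genes in the liver. Capitals mark every match, on either strand, to one of 6 motifs: the FOXO element GTAAACA, the insulin response core CAAAACA, the E-box CACGTG, the cAMP response core TGACG, the HNF1 core GTTAAT and the paired carbohydrate response element, which joins a pair of E-box-like cores.
Pklr, chr3:89136373-89136622: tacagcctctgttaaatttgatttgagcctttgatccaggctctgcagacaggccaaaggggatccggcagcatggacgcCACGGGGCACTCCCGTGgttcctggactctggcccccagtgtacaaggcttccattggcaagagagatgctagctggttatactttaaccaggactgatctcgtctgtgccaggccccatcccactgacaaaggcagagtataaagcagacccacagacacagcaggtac
G6pc, chr11:101367466-101367715: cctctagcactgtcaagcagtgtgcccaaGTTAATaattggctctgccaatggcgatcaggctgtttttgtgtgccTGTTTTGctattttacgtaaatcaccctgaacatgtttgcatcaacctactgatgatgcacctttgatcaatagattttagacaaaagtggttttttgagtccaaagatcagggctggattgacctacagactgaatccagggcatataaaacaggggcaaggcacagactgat
Slc2a2, chr3:28697653-28697902: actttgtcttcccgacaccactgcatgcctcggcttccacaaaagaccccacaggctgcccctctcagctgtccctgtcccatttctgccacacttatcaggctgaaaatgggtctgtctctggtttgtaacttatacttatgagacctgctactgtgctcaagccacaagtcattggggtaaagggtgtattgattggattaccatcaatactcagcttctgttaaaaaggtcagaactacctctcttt

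The capitals of Pklr are a paired carbohydrate response element, the kind of site that the glucose-responsive factor ChREBP binds, 170 to 154 bases before the start. It was found in 13 of 32851 promoter windows of the same length, or 0.0396%. This motif was added after the sequence had been seen. In G6pc, an HNF1 core lay 221 to 216 bases before the start and the insulin response core lay 174 to 168 bases before it, on the minus strand. The first was present in 6.43% and the second in 5.56% of all windows. Slc2a2 has no capitals, since none of the 6 motifs matched. Of the windows not shown, Irs1 held the insulin response core at 2 places, an E-box and a cAMP core, of which the E-box overlapped the cAMP core and 1 of the insulin response cores. Irs2 held 1 insulin response core and 1 E-box. E-boxes were present in 6.02% and cAMP cores in 17.8% of all windows, and the FOXO element, present in 3.17%, was in none of the 8 windows of these genes. These are matches of letters, and binding was not measured.

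Slc2a2, which encodes the glucose transporter GLUT2, was lower in all 3 supplemented groups than on the high fat diet alone, by amounts that did not pass the test across all genes. Its brighter probe (chr3:28627016-28627075 in build mm9) read 1.85, 3.54, 3.06, 3.00 and 2.23 in the HQ livers. In HR livers it lay between 1.76 and 3.13 with a median of 2.41, in HQR livers between 2.42 and 3.44 with a median of 3.00, and in HFD livers between 3.26 and 3.86 with a median of 3.52. The SD livers read 3.52, 3.06, 2.41, 3.82 and 3.24. The HR and HFD livers did not overlap, while 1 HQ liver and 2 HQR livers lay inside the HFD range. All 17 supplemented livers lay below the HFD mean, which comes from the same 6 livers for all 3 groups.

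Slc2a2 differed from HFD by -1.12 ± 0.27 (SE) on the log2 scale in HR, a 2.17-fold lower level (unadjusted p = 0.000361, adjusted p = 0.416, limma). The differences were -0.82 ± 0.29 in HQ (unadjusted p = 0.00857, adjusted p = 1.00, limma) and -0.59 ± 0.27 in HQR (unadjusted p = 0.0395, adjusted p = 0.987, limma). Over the 3 supplemented groups together the difference from HFD was -0.84, with a 95% confidence interval of -1.31 to -0.38 (unadjusted p = 0.000903, adjusted p = 0.997, limma). HFD livers were 0.34 above SD livers, with an interval of -0.25 to 0.93, and 6 of 6 HFD livers lay above the SD mean. HR livers were 0.78 ± 0.29 below SD livers (unadjusted p = 0.0116, adjusted p = 0.578, limma). Groups did not overlap for 0.388% of all genes in HR against HFD, for 0.166% in HQ against HFD and for 0.0923% in HQR against HFD.

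A second Slc2a2 probe lies across an intron, over 709 bases of chr3:28625253-28625961 in build mm9, and is shown, with no capitals, because it measures another stretch of the transcript.
Slc2a2, probe across an intron: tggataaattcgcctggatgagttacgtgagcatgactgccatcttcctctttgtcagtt
On this probe the differences from HFD were -0.61 in HQ, -0.66 in HR and -0.56 in HQR, with no adjusted p below 0.991 (limma, over 32078 probes). HR livers ran from -0.33 to 0.61 and HFD livers from 0.40 to 1.25, so that these groups overlapped here, and the HR difference was smaller than on the brighter probe. The levels of the 2 Slc2a2 probes had a Pearson r of 0.862 over the 28 livers, given as a description of agreement between probes. Within slides, the difference of the brighter probe lay between -1.80 and -1.54 for HQ against HFD on 2 slides. The HQ livers on these slides, at 1.85 and 2.23, were the lowest of the 5 HQ livers. No other HQ liver shared a slide with an HFD liver. The within-slide difference lay between -1.74 and -0.25 for HR against HFD on 4 slides, and between -1.23 and -0.27 for HQR against HFD on 4 slides. Each of these 10 within-slide values was below 0, but they share HFD livers between comparisons and are not independent. Without slide 8 the HR difference was -1.29.

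Array RNA came from whole liver, so fewer cells of a type and less RNA per cell cannot be told apart. In HR against HFD, 6 of 9 hepatocyte markers were lower, with a median log2 difference of -0.21, and their summed log2 level ran from 6.28 to 6.97 in HR livers and from 6.17 to 7.25 in HFD livers. In the same comparison 7 of 7 Kupffer cell and macrophage markers were higher, with a median of 0.55, and 7 of 7 endothelial markers, with a median of 0.54. The summed Kupffer cell level ran from 0.80 to 2.21 in HR livers and from -0.05 to 1.04 in HFD livers, and the summed endothelial level from 2.45 to 3.10 in HR livers and from 1.21 to 2.65 in HFD livers. The 2 erythrocyte markers were both lower in HR, with a median of -0.72, and the 2 adipocyte markers both higher, with a median of 0.79. The adipocyte value is uncertain, since Retn was well above background on 10 arrays only. The summed adipocyte level ran from -4.84 to -0.60 in HR livers and from -4.99 to -2.98 in HFD livers. Bile duct (5 of 5), pancreas (4 of 4) and skeletal muscle (3 of 3) markers were also higher in HR, with medians of 0.22, 0.12 and 0.23. Of these, Gcg and Ckm were well above background on 8 and 7 arrays only. Stellate (3 of 7 higher) and lymphocyte (2 of 4 higher) markers were mixed. In HQ against HFD, 7 of 7 endothelial, 7 of 7 stellate and 6 of 7 Kupffer cell markers were higher, with medians of 0.26, 0.18 and 0.33. In HQR against HFD, 6 of 7 endothelial and 6 of 7 Kupffer cell markers were higher, with medians of 0.23 and 0.20. Bile duct markers were higher for 4 of 5 in HQ and for 5 of 5 in HQR. Pancreas markers were higher for 3 of 4 in each, and skeletal muscle markers for 3 of 3 in HQ and 2 of 3 in HQR. Hepatocyte markers were lower for 5 of 9 in HQ and for 6 of 9 in HQR, with medians of -0.25 and -0.27. No marker of these lists passed the test. Their part in the Slc2a2 differences was not tested.

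**Figure D1:**
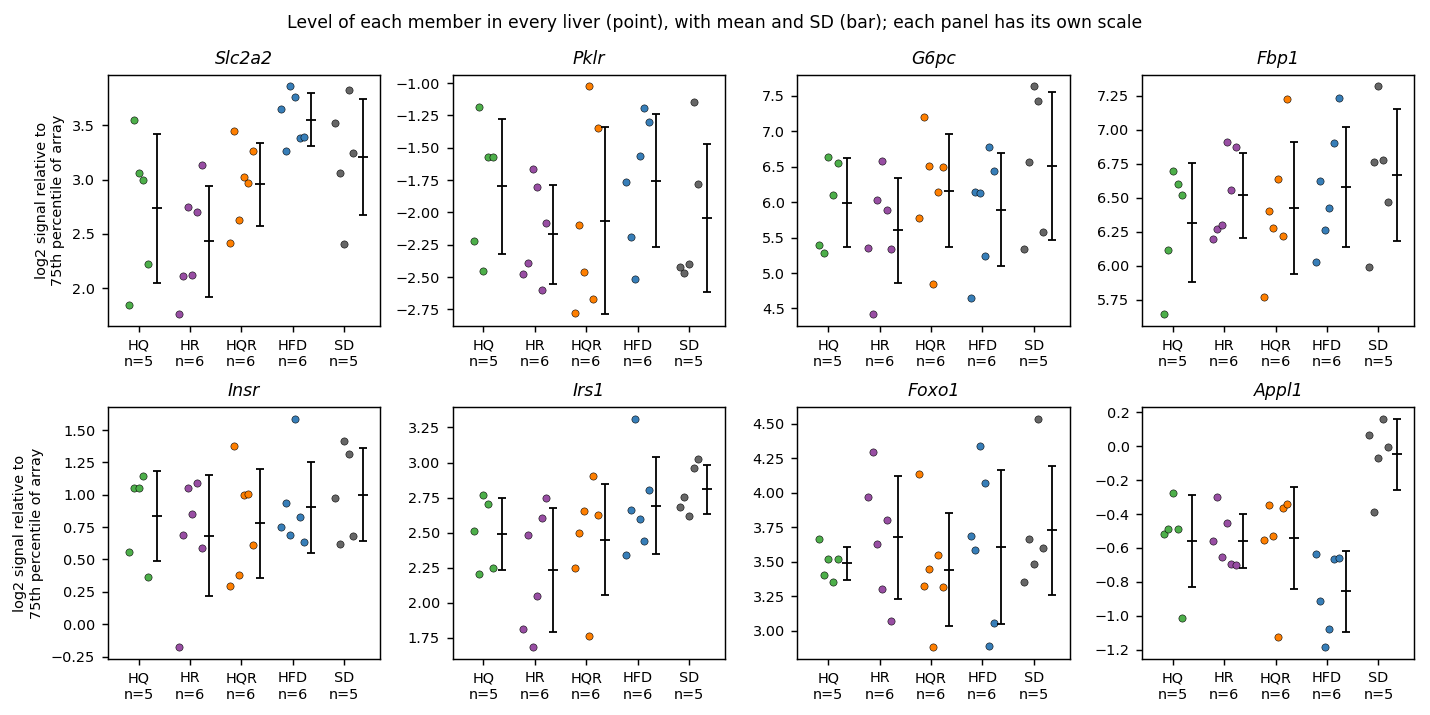
Level of the brightest probe of each of the 8 measured genes in every liver, in log2 units set to the 75th percentile of its array, by diet group on the horizontal axis (points: livers; bars: mean and SD; n = 5 or 6). For Slc2a2 the 6 HR livers lie below the 6 HFD livers, and for Appl1 the 6 HFD livers lie below the 5 SD livers.

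Pklr encodes the liver pyruvate kinase, which carries out the last step of glycolysis, and none of its differences passed. Its probe lies across an intron, over 519 bases of chr3:88948907-88949425 in build mm9, and is shown because it is the only measure of the gene whose promoter carries the paired element.
Pklr, probe across an intron: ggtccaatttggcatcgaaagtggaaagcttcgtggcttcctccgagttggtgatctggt
Pklr averaged -1.80 ± 0.52 in HQ, -2.17 ± 0.38 in HR, -2.06 ± 0.73 in HQR, -1.75 ± 0.52 in HFD and -2.04 ± 0.58 in SD livers (SD, n = 5, 6, 6, 6 and 5). The ranges of all 5 groups overlapped, and Pklr spanned 3.38-fold over the 28 livers. The log2 difference was 0.29 for HFD against SD, with a 95% confidence interval of -0.38 to 0.96, and -0.42 for HR against HFD, with an interval of -1.06 to 0.23. The first interval reached a 1.95-fold higher level of Pklr, and the second a 2.08-fold lower one.

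G6pc, the catalytic subunit of glucose-6-phosphatase, and Fbp1, fructose-1,6-bisphosphatase, act at the end of gluconeogenesis. G6pc had a within-group SD of 0.81, larger than that of 85.3% of genes, and it spanned 9.32-fold over the 28 livers. It averaged 5.99 ± 0.63 in HQ, 5.60 ± 0.74 in HR, 6.16 ± 0.80 in HQR, 5.90 ± 0.80 in HFD and 6.51 ± 1.04 in SD livers (SD, n = 5, 6, 6, 6 and 5). The 5 SD livers read 5.34, 6.57, 7.64, 7.42 and 5.57, so that SD held both high and low livers. The largest G6pc difference between 2 single diets was HR against SD, -0.91 with a 95% confidence interval of -1.87 to 0.05 (adjusted p = 0.909, limma). For HFD against SD it was -0.61, with an interval of -1.57 to 0.35.

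Fbp1 was more even, with a within-group SD of 0.44 and a range of 3.21-fold over all livers. It averaged 6.32 ± 0.44 in HQ, 6.52 ± 0.32 in HR, 6.42 ± 0.49 in HQR, 6.58 ± 0.44 in HFD and 6.67 ± 0.49 in SD livers (SD, n = 5, 6, 6, 6 and 5). None of its differences passed, and that for HFD against SD was -0.09, with an interval of -0.63 to 0.45. Slide accounted for a share of 0.571 of the variance of Fbp1 and diet for 0.081. For Slc2a2 the order was the other way, with 0.0824 for slide and 0.448 for diet. These shares are not corrected for the number of slides and diets.

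The pairing of levels within livers was compared for all 28 pairs of the 8 genes. That of G6pc and Fbp1 was the closest before slide effects were removed. Over 28 livers, the deviations of the 2 genes from their group means had a Pearson r of 0.599 (permutation p = 0.0026, adjusted over 28 pairs of genes 0.0728) and a Spearman rho of 0.603 (permutation p = 0.00215, adjusted 0.037). Without the 2 livers farthest from the median in G6pc, r was 0.651, and with slide means removed as well it was 0.575 over the 28 livers. Fbp1 and Foxo1 went opposite ways, with an r of -0.497 (permutation p = 0.014, adjusted 0.131) and a rho of -0.591 (permutation p = 0.00264, adjusted 0.037). For this pair r was -0.520 without the 2 livers farthest in Fbp1, and -0.472 with slide means removed over all livers. Permutations were two-sided and kept each liver in its group. None of the 28 pairs passed after adjustment by Pearson's r, and these 2 passed by Spearman's rho. These permutations moved livers across slides. Group and slide effects were then removed together and livers permuted within their slide, chosen after seeing the data. G6pc and Fbp1 had r = 0.575 (permutation p = 0.0004, adjusted 0.0112) and rho = 0.684 (permutation p = 0.00087, adjusted 0.0244). Fbp1 and Foxo1 passed by neither measure (rho = -0.524, permutation p = 0.0155, adjusted 0.144). By r the closest pair was then Pklr and Irs1 (-0.630), and by rho it was G6pc and Fbp1. Removing group effects ties the remaining values of livers on different slides together, which permuting within slides does not keep. The p of this second permutation can therefore be too small, and no pass is drawn from it.

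Insr encodes the insulin receptor itself. Its brighter probe averaged 0.84 ± 0.35 in HQ, 0.68 ± 0.47 in HR, 0.78 ± 0.42 in HQR, 0.90 ± 0.35 in HFD and 1.00 ± 0.36 in SD livers (SD, n = 5, 6, 6, 6 and 5). All groups overlapped, and the HFD range from 0.64 to 1.59 had its top at a single liver, the next being 0.94. The differences were -0.10 for HFD against SD, with an interval of -0.59 to 0.40, and -0.22 for HR against HFD, with an interval of -0.69 to 0.25. The dimmer Insr probe, which lies further upstream on the minus strand (chr8:3159473-3159532, against chr8:3151667-3151726 for the brighter, build mm9), gave -0.09 and -0.01 for the same comparisons. The Pearson r between the 2 Insr probes was -0.086 over the 28 livers, so the liver-to-liver pattern of one was not seen on the other.

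Irs1 encodes a scaffold that links the receptor to PI3-kinase, and its brighter probe was lowest in HR. The HQ livers read 2.52, 2.21, 2.77, 2.70 and 2.25. HR livers lay between 1.68 and 2.75 with a median of 2.27, HQR livers between 1.77 and 2.91 with a median of 2.56, and HFD livers between 2.34 and 3.31 with a median of 2.63. The SD livers read 2.69, 2.75, 2.62, 2.96 and 3.03. The SD livers kept to a narrow range, and 6 of 6 HR livers lay below the SD mean, although the ranges overlapped.

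Irs1 differed by -0.46 ± 0.21 in HR against HFD (unadjusted p = 0.033, adjusted p = 0.976, limma) and by -0.58 ± 0.22 in HR against SD (unadjusted p = 0.0125, adjusted p = 0.591, limma). The dimmer Irs1 probe, which lies upstream of the first in the same transcript, did not repeat this order. It averaged -0.67 ± 0.24 in HQ, -0.62 ± 0.32 in HR, -0.75 ± 0.36 in HQR, -0.89 ± 0.48 in HFD and -0.25 ± 0.42 in SD livers (SD, n = 5, 6, 6, 6 and 5). On it HR was 0.27 above HFD, and HFD was 0.64 ± 0.23 below SD (unadjusted p = 0.0103, adjusted p = 0.595, limma). The Pearson r between these probes was 0.105 over the 28 livers.

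**Figure D2:**
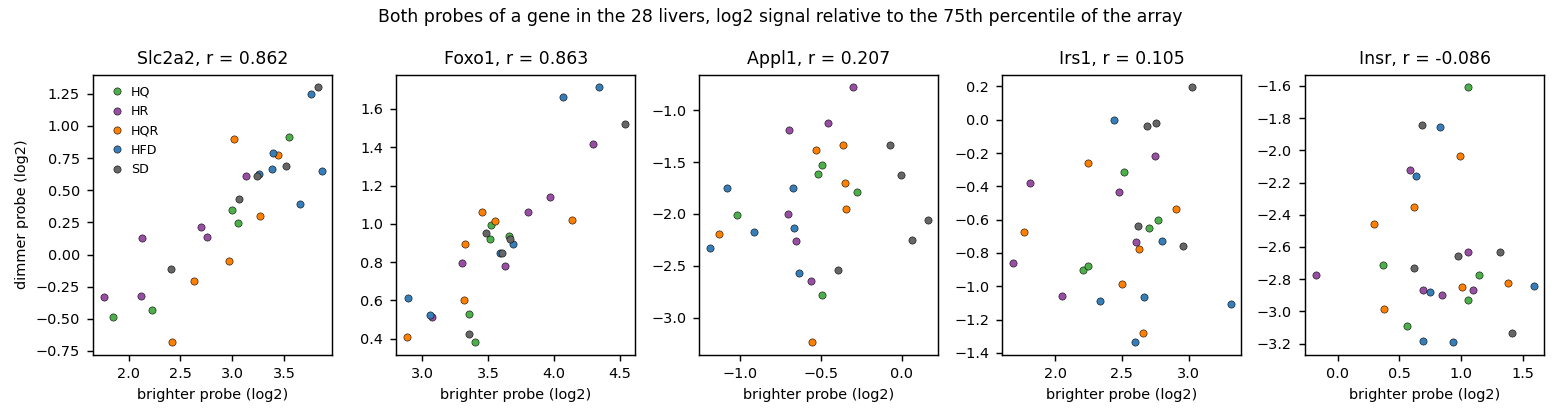
Levels of the brighter probe (horizontal axis) and the dimmer probe (vertical axis) of 5 genes in the 28 livers, in log2 units set to the 75th percentile of each array; colours are the diet groups. The probes of Slc2a2 and Foxo1 rise together (r = 0.862 and 0.863), while those of Appl1, Irs1 and Insr do not (r = 0.207, 0.105 and -0.086).

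Foxo1 encodes the factor through which insulin restrains gluconeogenic transcription, and its mRNA level did not pass in any comparison. It averaged 3.49 ± 0.12 in HQ, 3.68 ± 0.45 in HR, 3.44 ± 0.41 in HQR, 3.61 ± 0.56 in HFD and 3.73 ± 0.47 in SD livers (SD, n = 5, 6, 6, 6 and 5). The HQ livers kept within 1.24-fold of each other, while HFD livers spanned 2.73-fold. The difference for HFD against SD was -0.12, with an interval of -0.66 to 0.42, and it was 0.11 on the dimmer probe. The 2 Foxo1 probes had a Pearson r of 0.863 over the 28 livers. FOXO1 is controlled mainly through its location in the cell, which mRNA does not show.

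Appl1 encodes an adaptor protein that binds adiponectin receptors and AKT and links adiponectin to insulin signalling. On its brighter probe (chr14:27736802-27736861, minus strand, in build mm9) the 5 HQ livers read -0.52, -0.49, -0.28, -0.49 and -1.02. HR livers lay between -0.70 and -0.30 with a median of -0.61, HQR livers between -1.13 and -0.34 with a median of -0.45, and HFD livers between -1.19 and -0.63 with a median of -0.79. The SD livers read 0.06, -0.39, -0.07, 0.16 and -0.002. The 6 HFD livers were all below the 5 SD livers, and all 23 livers on high fat diets lay below the SD mean. The means of the supplemented groups lay between, and each of these groups overlapped both HFD and SD.

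Appl1 fell by 0.81 ± 0.16 (SE) on the log2 scale in HFD against SD, with an interval of -1.15 to -0.47, or 1.75-fold (adjusted p = 0.0351, limma). It was the 1 gene of 8 that passed in this comparison, in which 0.114% of all genes passed and 0.0458% passed as lower. The 8 genes were chosen with earlier results of these data known, so nothing is drawn from the count beside these shares. Groups did not overlap for 1.33% of all genes. Within 4 slides that held both diets the HFD minus SD difference lay between -1.35 and -0.52. Without slide 8 Appl1 still passed. The call was narrow: it was kept under 5 of 16 other ways of processing the arrays and lost under 11, with adjusted p between 0.00965 and 0.770 (limma), and the difference stayed between -0.85 and -0.48. Leaving out 1 liver at a time ended the call for 8 of 28 livers, namely SD replicates 1, 3, 4 and 5, HFD replicates 2, 3 and 4 and HQR replicate 3, with adjusted p up to 0.135 (limma). With replicate numbers as a block the adjusted p was 0.0675 (limma). This block matches same-numbered livers of all 5 groups, while of 8 pairs of groups only HFD and SD were taken as paired. The labels state no pairs, and those of HFD and SD were taken from correlations in the same data.

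On the second Appl1 probe, which lies further downstream (chr14:27732721-27732780, minus strand, build mm9), the difference did not pass. It averaged -1.95 ± 0.50 in HQ, -1.67 ± 0.74 in HR, -1.97 ± 0.70 in HQR, -2.12 ± 0.32 in HFD and -1.96 ± 0.48 in SD livers (SD, n = 5, 6, 6, 6 and 5). Its HFD minus SD difference was -0.15, with an interval of -0.85 to 0.54 (adjusted p = 0.955, limma), and its Pearson r with the brighter probe was 0.207. With the mean of both probes the adjusted p was 0.770 (limma).

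Against SD, Appl1 was lower by 0.51 in HQ, 0.51 in HR and 0.50 in HQR, with adjusted p of 0.810, 0.451 and 0.417 (limma). Against HFD it was higher by 0.30, 0.30 and 0.31 in the same order, with adjusted p of 1.00, 1.00 and 0.987 (limma). These comparisons share the SD or the HFD livers. Over the 4 high fat groups together the difference from SD was -0.58 ± 0.13 (adjusted p = 0.0666, limma), and it passed with slide as a random block (adjusted p = 0.0188, limma). In HFD against SD, 7 of 9 hepatocyte markers were lower, with a median of -0.29, and 5 of 7 Kupffer cell markers, with a median of -0.40. The 2 adipocyte markers were both lower, with a median of -0.96, which is uncertain since Retn was well above background on 10 arrays only. Pancreas (3 of 4), skeletal muscle (3 of 3) and bile duct (3 of 5) markers were also lower, with medians of -0.20, -0.13 and -0.02. The pancreas and muscle lists hold Gcg and Ckm, which were well above background on 8 and 7 arrays only. In the same comparison 6 of 7 stellate, 5 of 7 endothelial and 2 of 2 erythrocyte markers were higher, with medians of 0.35, 0.20 and 0.54. Lymphocyte markers were higher for 3 of 4, with a median of 0.29. No marker of these lists passed the test. Their part in the Appl1 difference was not tested.

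**Figure D3:**
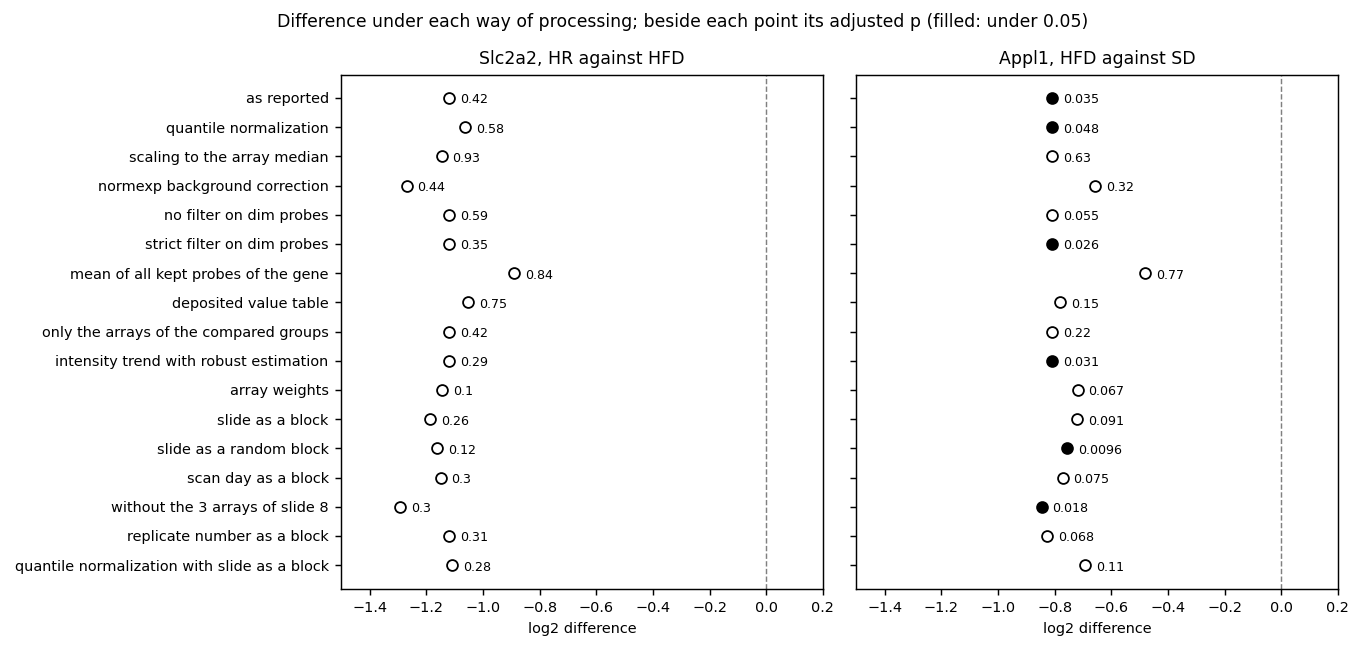
Log2 difference of Slc2a2 in HR against HFD and of Appl1 in HFD against SD (horizontal axis), under the processing reported here and under 16 others (vertical axis), with the adjusted p beside each point and filled points where it is under 0.05. Both differences stay below 0 throughout, Slc2a2 between -1.29 and -0.89 and Appl1 between -0.85 and -0.48.

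The tested genes whose level followed the brighter Appl1 probe most closely over the 28 livers were Grk3, Cbx7 and Asns, with Pearson r of 0.783, 0.754 and 0.753 among 21657 genes compared. Grk3 is a receptor kinase, Cbx7 a Polycomb protein and Asns the asparagine synthetase. With group means removed, r was 0.562 for Grk3, 0.611 for Cbx7 and 0.459 for Asns. These values are a description, and the livers share slides and diets.

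Each supplement was compared with HFD. In HR against HFD 0 of 8 genes passed (limma), with 2 at an unadjusted p under 0.05, Slc2a2 and Irs1; 0.00915% of all genes passed and 4.92% had such a p. In HQ against HFD 0 of 8 passed (limma), with 1 at an unadjusted p under 0.05, against 0% and 2.13% of all genes. In HQR against HFD 0 of 8 passed (limma), again with 1, against 0% and 1.36% of all genes. In each of these 3 comparisons 6 of 8 genes were lower than in HFD. The median difference of the 8 genes was -0.09 in HQ, -0.26 in HR and -0.16 in HQR, beside -0.01, 0.01 and 0.05 for all genes.

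**Figure D4:**
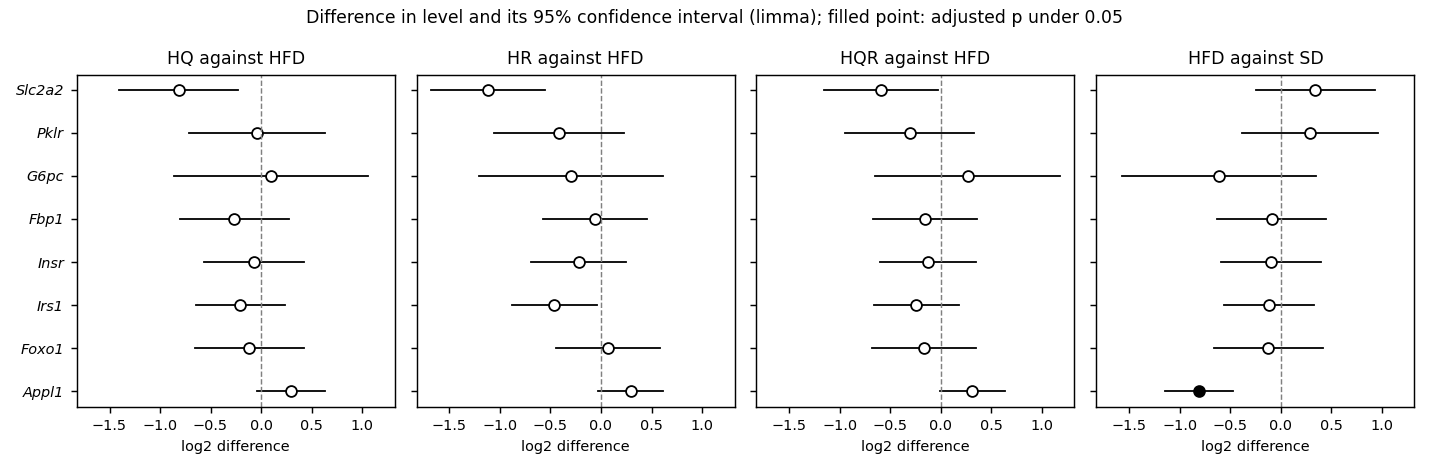
Log2 difference (point) and 95% confidence interval (line) of each of the 8 genes in HQ, HR and HQR against HFD and in HFD against SD, from limma. The filled point, Appl1 at -0.81 in HFD against SD, is the 1 that passed, and the Slc2a2 points of the 3 supplements at -0.82, -1.12 and -0.59 lie left of 0.

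Quercetin and resveratrol, a flavonol and a stilbene, were given at the same 0.4% in HQ and HR, so that 1 pair of compounds could be compared at a matched dose. None of the 8 genes passed in HQ against HR (limma), and 0 of 8 had an unadjusted p under 0.05, against 0% and 1.29% of all genes. The differences ran from -0.20 for Fbp1 to 0.39 for G6pc. The intervals were wide: -0.29 to 0.89 for Slc2a2, -0.57 to 1.35 for G6pc, -0.30 to 1.04 for Pklr and -0.18 to 0.70 for Irs1. That for Appl1 was -0.34 to 0.34. HQR carried each compound at 0.2%, a different dose, and its values stand above beside those of HQ and HR.

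Against the standard diet none of the 8 genes passed in any supplemented group (limma). The share of all genes that passed was 0.0366% for HQ, 0.0549% for HR and 0.0503% for HQR, and the share that passed as lower was 0.00915%, 0.0229% and 0.0229%. The difference was below 0 for 7 of 8 genes in HQ and for 8 of 8 in HR and in HQR, with medians of -0.34, -0.42 and -0.27 beside -0.05, -0.05 and 0.01 for all genes. At an unadjusted p under 0.05 there was 1 gene in HQ (Appl1), 3 in HR (Slc2a2, Irs1 and Appl1) and 1 in HQR (Appl1), against 3.91%, 5.72% and 6.43% of all genes. In the 4 high fat groups against SD 0 of 8 passed (limma), with 1 at an unadjusted p under 0.05. Of all genes, 0.16% passed there, 0.0732% as lower, and 7.19% had such a p. In the 3 supplemented groups against HFD 0 of 8 passed (limma), with 2 at such a p, beside 0.00458% and 3.42% of all genes. An F test over the 5 diets passed 0 of 8 (limma), with smallest adjusted p of 0.350 for Appl1 and 0.637 for Slc2a2, and 0.105% of all genes passed it. At an unadjusted p under 0.05 the F test held these 2 genes, beside 3.96% of all genes.

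The pathway around these genes was read from 8 lists with 161 genes, of which 157 were tested. These lists too were chosen with earlier results of these data known. None of the 157 passed in any of the 10 comparisons (limma). Of all genes, 0.114% passed in HFD against SD and 0.00915% in HR against HFD. A count of 0 in a list of 9 to 44 tested genes is near these shares. In HFD against SD, 16 of the 157 had an unadjusted p under 0.05, or 10.2%, beside 6.14% of all genes. In HR against HFD there were 15, or 9.55%, beside 4.92%. The median difference of the 157 genes was -0.06 in HFD against SD and -0.08 in HR against HFD, beside -0.04 and 0.01 for all genes. Pck1, which encodes the cytosolic phosphoenolpyruvate carboxykinase of gluconeogenesis, was not analysed here.

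Igfbp1 encodes a binding protein for insulin-like growth factors and is a target of FOXO1 that insulin lowers. Its level lay between 2.60 and 3.81 in HFD livers, and the SD livers read 4.00, 5.07, 5.54, 5.29 and 2.24. SD replicate 5 lay below all HFD livers, and the other SD livers lay above them. The Igfbp1 difference for HFD against SD was -1.22 ± 0.58 (adjusted p = 0.800, limma). Pdk4, another FOXO1 target, which encodes a kinase that restrains pyruvate oxidation, was 0.95 ± 0.48 lower in HFD than in SD (adjusted p = 0.845, limma). Srebf1, which encodes the insulin-responsive lipogenic factor SREBP1, was 1.23 ± 0.59 higher in HFD than in SD (adjusted p = 0.796, limma) and 1.30 ± 0.56 lower in HR than in HFD (adjusted p = 0.959, limma). Mlxipl, which encodes ChREBP, was 0.27 higher in HFD than in SD, and Akt2, the main AKT of insulin action in liver, was 0.06 lower.

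**Figure D5:**
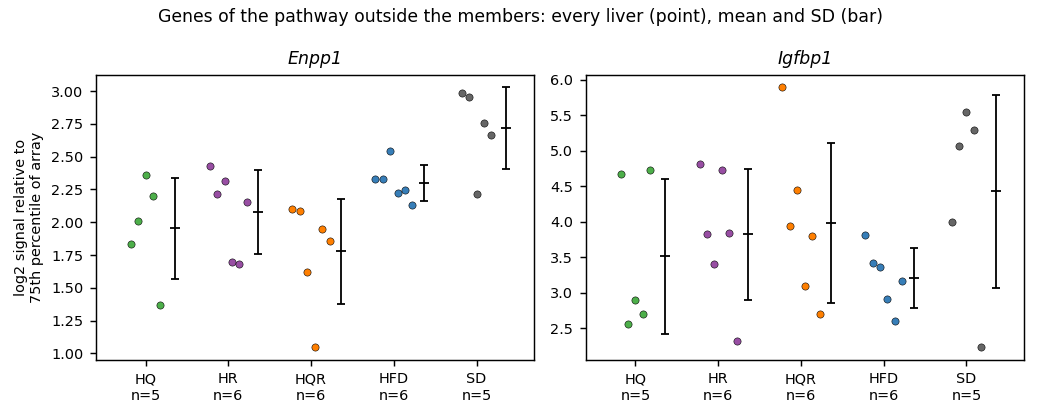
Levels of Enpp1 and Igfbp1 in every liver, in log2 units set to the 75th percentile of its array, by diet group (points: livers; bars: mean and SD; n = 5 or 6). The 6 HQR livers lie below the 5 SD livers for Enpp1, as such groups do for 0.803% of all genes, and for Igfbp1 1 SD liver, at 2.24, lies below all HFD livers.

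In the insulin receptor cascade 0 of 44 tested genes passed in HFD against SD, beside 0.114% of all genes. The smallest p there belonged to the atypical kinase gene Prkcz, 0.64 ± 0.19 lower in HFD, and to Prkce, which encodes a lipid-activated kinase that acts on the insulin receptor, 0.60 ± 0.20 higher (adjusted p = 0.370 and 0.498, limma). Prkce was 0.62 ± 0.19 lower in HR than in HFD (adjusted p = 0.723, limma). Its level averaged 1.31 ± 0.42 in HR, 1.93 ± 0.29 in HFD and 1.33 ± 0.17 in SD livers (SD, n = 6, 6 and 5). Rptor, a subunit of mTORC1, was 0.36 ± 0.13 lower in HR than in HFD (adjusted p = 0.857, limma).

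Enpp1, whose product restrains the insulin receptor, was chosen after its values were seen. It averaged 1.95 ± 0.38 in HQ, 2.08 ± 0.32 in HR, 1.78 ± 0.40 in HQR, 2.30 ± 0.14 in HFD and 2.72 ± 0.31 in SD livers (SD, n = 5, 6, 6, 6 and 5). The 6 HQR livers, from 1.05 to 2.10, all lay below the 5 SD livers, from 2.22 to 2.99, and groups did not overlap for 0.803% of all genes in this comparison. In HQR against SD it was 0.94 ± 0.20 lower (adjusted p = 0.0683, limma).

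Among 21 tested gluconeogenic genes 0 passed in HFD against SD, beside 0.114% of all genes. Ppargc1a, which encodes the coactivator PGC-1α, was 0.97 ± 0.29 lower in HFD and Foxa2, a liver transcription factor gene, 0.76 ± 0.30 higher (adjusted p = 0.419 and 0.646, limma). In HR against HFD the smallest p were those of the malate dehydrogenase gene Mdh1, 0.75 ± 0.23 lower, and of the transcription factor gene Klf15, 0.68 ± 0.21 lower (adjusted p = 0.723 and 0.737, limma). Among 21 FOXO1 targets and partners 0 passed, and Bcl6, a transcriptional repressor gene, was 1.22 ± 0.41 lower in HFD than in SD (adjusted p = 0.515, limma). Sesn3, a FOXO target, was 0.50 ± 0.21 lower in HR than in HFD (adjusted p = 0.957, limma).

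Among 17 genes of glycogen metabolism 0 passed in HFD against SD or in HR against HFD, beside 0.114% and 0.00915% of all genes. The branching enzyme gene Gbe1 was 0.76 ± 0.24 higher in HFD than in SD and 0.57 ± 0.23 lower in HR than in HFD (adjusted p = 0.482 and 0.944, limma). Phkg2, a subunit of liver phosphorylase kinase, was 0.53 ± 0.25 lower in HFD than in SD, and the liver phosphorylase gene Pygl was 0.43 ± 0.16 lower in HR than in HFD. Among 13 genes of the pentose phosphate pathway and of ChREBP 0 passed. Of these, Tkfc and Taldo1, which encode enzymes of sugar metabolism, were 0.68 ± 0.21 and 0.49 ± 0.15 lower in HR than in HFD, Taldo1 was 0.32 ± 0.16 higher in HFD than in SD, and the clock gene Arntl was 0.71 ± 0.29 lower in HFD than in SD.

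Among 26 glycolytic genes 0 passed in HFD against SD or in HR against HFD, beside 0.114% and 0.00915% of all genes. The smallest p in HFD against SD was that of Pdk1, which encodes another kinase of pyruvate dehydrogenase, 0.41 ± 0.17 higher in HFD, and in HR against HFD the smallest was that of the fructokinase gene Khk, 0.41 ± 0.21 lower in HR. The pyruvate kinase gene Pkm was 0.23 ± 0.13 higher in HR than in HFD. Among 9 tested sugar transporter genes 0 passed, and 7 of 9 were lower in HR than in HFD. Their median was -0.28, beside 0.01 for all genes. Slc2a1, which encodes GLUT1, was 0.43 ± 0.18 lower in HR, and Slc37a4, which encodes the transporter that feeds glucose-6-phosphatase, 0.48 ± 0.25 lower. In HFD against SD the fructose transporter gene Slc2a5 was 0.58 ± 0.34 lower and the urate transporter gene Slc2a9 0.37 ± 0.21 higher.

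Among 12 genes of the adiponectin receptors and the partners of APPL1 0 passed (limma), and 0 of 12 had an unadjusted p under 0.05 in HFD against SD or in HR against HFD. Of all genes, 6.14% and 4.92% had such a p in these comparisons, so 0 of 12 is near that share. The kinase gene Stk11, which encodes LKB1, was 0.25 ± 0.15 lower in HFD and Prkaa1, a catalytic subunit of AMPK, 0.20 ± 0.16 higher. In HR against HFD the small GTPase gene Rab21 was 0.26 ± 0.14 higher and Prkaa1 0.27 ± 0.15 lower.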

How the data were processed

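Spots of 1-colour scans were read with Agilent Feature Extraction 10.5.1.1, per the file headers, and the deposited processed intensity is background-subtracted. The deposited value table holds a score per probe and array that follows the log of the processed intensity. Its scale is not stated, so it was used only as an alternative, brought to log2 with a factor of 3.25. Groups and replicate numbers came from the labels, and slide and scan day from the file headers. Per the series' design text, 2 of 30 RNA samples were left out as degraded.

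Spots marked as outliers by the scanner software were left out, the log2 intensities of a probe's spots were averaged, and the 75th percentile of the array was subtracted. The 75th percentile of the processed intensity lay between 173 and 557. Probes well above background on at least 5 arrays were kept (32078), and the probe with the highest mean stood for each of 21851 genes. All 28 arrays were fitted in 1 model without covariates with limma 3.58.1 in R 4.3.3 (lmFit, contrasts.fit, eBayes), for 10 two-sided comparisons and an F test. Benjamini-Hochberg adjustment ran over all genes tested, and errors of differences are standard errors of that model. The fits were tested on simulated data with each gene's spread and no slide effect. Of 100 simulated 2-fold changes, 36 were recovered in HFD against SD and 42 in HR against HFD. Of 100 simulated 4-fold changes, 86 and 83 were recovered. Most 2-fold changes were thus missed in these 2 comparisons. The number of arrays limits the precision. Intervals are for the difference between group means, with an error estimated from the spread between mice, and do not give the range of single mice.

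Same-numbered livers were taken as paired where every correlation of their deviations from group means was over 0.1, which held for HFD and SD (5 pairs, 0.217 to 0.698) and so for 1 of 8 pairs of groups. The correlations give this pairing, since the labels state none.

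The genes and the pathway and marker lists were chosen with earlier results of these data known. Named pathway genes are the 2 of each list with the smallest p in HFD against SD and in HR against HFD, with Mlxipl, Srebf1, Igfbp1, Pdk4 and Akt2. A gene of these lists is not reported here and was left out of their counts. Alternatives were quantile normalization, median scaling, normexp correction (offset 50), a filter of 20 arrays or none, the mean of all probes, the value table, the compared arrays alone, an intensity trend, array weights, a block for slide (fixed or random), for scan day or for replicate number, leaving out slide 8, and leaving out each liver. Quantile normalization together with a slide block, and the other probes of the genes were chosen after seeing the data. Promoters are from RefSeq, and exon annotation of build mm9 was not used here.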

Additional observations from a re-analysis of the deposited data

Results flagged for a closer look

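In 40 sets of 5 or 6 livers (8 genes in 5 diet groups), 3 held a liver far from the rest of its group, and chance alone flags about 1 set in 20. For Insr, HFD replicate 4 read 1.587 on the brighter probe, above the next HFD liver at 0.935. For Foxo1, SD replicate 4 read 4.538, above the next SD liver at 3.669, and that liver was also the highest SD liver on the dimmer Foxo1 probe, at 1.522. For Appl1, HQR replicate 4 read -1.128, below the next HQR liver at -0.553, and this liver lay on slide 8.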

How the results depend on the processing

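Under 16 alternatives the 8 genes gave 1272 differences, of which 53 changed sign, and none of these 53 had passed. The Appl1 fall in HFD against SD kept its direction in 16 of 16. The count of genes that passed in that comparison was 0 in place of 1 with median scaling, normexp correction, no filter, the mean of all probes, the value table, the compared arrays alone, array weights, a block for slide, for scan day or for replicate number, and quantile normalization together with a slide block, and it lay between 0 and 1 when single livers were left out. The replicate block, which matches same-numbered livers of all 5 groups, thus left 0 genes, with an adjusted p for Appl1 of 0.0675 (limma). Only HFD and SD livers had been taken as paired, on the correlations alone. In the 4 high fat groups against SD the count was 1 with slide as a random block. Slc2a2 in HR against HFD lay between -1.29 and -0.89 and passed in none of 16. The number of pathway genes that passed in any comparison, 0 as reported, was 1 with the intensity trend (Enpp1), 1 with array weights (Enpp1), 3 with slide as a block (Foxa2, Ppargc1a and Trib3), 4 with slide as a random block (Enpp1, Foxa2, Ppargc1a and Prkcz) and 4 with quantile normalization together with a slide block (Foxa2, Ppargc1a, Trib3 and Bhlhe40). With single livers left out it lay between 0 and 1, with Foxa2 passing without HR replicate 1. The cause was not tested.

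Normexp correction moved the median of all genes to 0.25 in HQ against HFD, 0.17 in HR against HFD and -0.14 in HFD against SD. Relative to these medians the Appl1 and Slc2a2 differences keep their direction. Counts over all genes moved as well, from 25 to between 10 and 81 in HFD against SD.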
